A study of Drosophila melanogaster with 10 samples.

Results

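The genes described here lie in the pericentromeric heterochromatin of Drosophila melanogaster chromosomes 2 and 3. They were chosen by position alone on the dm6 genome build: genes of 2L starting at or beyond 22300000, genes of 3L starting at or beyond 23000000, and genes of 3R ending at or before 4200000. After 3 genes for cytosolic ribosomal proteins were left out, 97 rows of the count table met these limits. Of these, 75 had at least 10 counts in 2 or more libraries and are described here, out of 16727 genes in the table. They comprised 16 rows on 2L, 38 on 3L and 21 on 3R, and the other 22 rows fell under the count minimum.

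Expression had been measured by polyA-selected RNA sequencing of brains from wandering third-instar larvae, with 25 brains per library. The genotypes were 12xWT, named for 12 wild-type histone gene repeats, and yw, given as carrying 200. There were 3 libraries of 12xWT males, 3 of 12xWT females, 2 of yw males and 2 of yw females. The labels name no further alleles; from published work on this system, repeats like those of 12xWT are supplied by a transgene in flies whose own histone cluster is deleted. Since 1 genotype stands for each number of repeats, repeat number and the other differences between the stocks cannot be told apart. Nothing in the labels says that replicates came from separate cultures, so p-values measure the spread between these libraries.

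Pericentromeric heterochromatin is the compact, repeat-rich DNA that flanks the centromeres. It is packaged with histone H3 methylated at lysine 9 and bound by HP1, and it silences most euchromatic genes that are moved into it. The genes that live there are unusual in Drosophila because several of them, light (lt) being the classical case, need the heterochromatic surroundings for full expression. Many have introns swollen by transposon remnants and satellite DNA.

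That architecture was visible in the annotation used for counting. The median distance from start to end was 6.77 kb for the 75 heterochromatic rows, 2.49 kb for the 6888 rows of 2L, 3L and 3R outside the limits with the same minimum of counts, and 8.28 kb for the 96 such rows of chromosome 4, the small autosome that is largely heterochromatic. Exons made up a median of 36.0% of that distance in the heterochromatic rows, 83.8% in the other rows of these arms and 51.96% on chromosome 4. The distance exceeded 100 kb in 11 heterochromatic rows, the longest being Snap25 at 225 kb, and in 91 of the 11284 rows of the table with the same minimum of counts. All 75 rows could be matched to a current reference gene, but to only 64 different ones. The older gene models break Myo81F into 10 rows and lovit into 3 rows, and 1 row (CG40188) is a piece of Pzl. Where the row name of a described gene differs from its current symbol, both are given at first mention; the long noncoding RNAs CR45177 and CR45180 are now lncRNA:CR45177 and lncRNA:CR45180.

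Library totals ranged from 52.02 to 79.92 M counts (M, 1e6). The white gene w, whose mutation is part of the yw name, averaged 256.5 ± 27.3 CPM (counts per 1 M counts of the library; SD, n = 6) in 12xWT and 0.134 ± 0.0467 CPM (n = 4) in yw, in accord with the labels. Summed Y-linked RNA was 18.6 CPM in 12xWT female replicate 2, near the 20.5 to 23.5 CPM of 12xWT males, against 4.86 and 4.47 CPM in the other 12xWT females. It was 0.175 and 0.276 CPM in the yw males and 0 and 0.0356 CPM in the yw females, so that in yw it did not set the sexes clearly apart. In 12xWT male replicate 3, summed fat body markers reached 507.9 CPM, the highest of the 10 libraries. Counts of heterochromatic genes are therefore also given without both of these libraries.

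The heterochromatic rows together took 4479 to 4656 CPM in the 12xWT libraries (median 4566) and 4320, 4375, 4441 and 4259 CPM in the yw libraries. The lowest 12xWT library lay above the highest yw library. The group means differed by 215.7 CPM, of which spok, CG40470 and Cht3 (now Cht10) made up 154.8 CPM. A sum over genes of such unequal level is set by a few of them.

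Per kilobase of exon, the highest levels belonged to housekeeping genes. These were Tim17b, a mitochondrial import subunit, with 135 CPM per kb over the 10 libraries, CG32230 (now ND-MLRQ), a subunit of respiratory complex I, with 131, CG40045 with 128, CkIIalpha, the catalytic subunit of casein kinase II, with 101, and alpha-Cat, the link from cadherin to actin, with 98.4. No difference between genotypes was called for any of these 5 genes, with log2 fold changes between -0.03 and 0.01. The median level per kilobase was 14.7 CPM per kb over the heterochromatic rows tested and 9.82 CPM per kb over all genes tested. At the other end stood CR43941 with 0.0756 CPM per kb.

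With sex as a covariate, 23 heterochromatic rows were higher and 12 were lower in 12xWT than in yw, of 74 that passed the expression filter (edgeR quasi-likelihood test, Benjamini-Hochberg adjusted p under 0.05 over 11146 genes). These are 31.1% and 16.2% of the rows, where 17.0% of all genes tested were called higher, 16.4% lower and 33.4% either way. Leaving out 12xWT female replicate 2 and 12xWT male replicate 3 together gave 22 higher and 8 lower. Higher rows numbered 15 without yw male replicate 2, and lower rows 7 without yw female replicate 2 and 7 without yw male replicate 1. The share of all genes called in these fits with libraries left out was not counted. A change in these rows alone therefore cannot be told from a change over all genes. With library size in place of TMM, 23 were higher and 7 lower, so that 76.7% of the calls were higher against 65.7% with TMM. Over all genes tested, 61.2% of the calls were higher with library size and 50.8% with TMM. Counted once per reference gene, 16 of 63 were higher and 11 lower. The median log2 fold change was 0.07 over the rows, 0.00 over all genes, 0.01 over the other genes of 2L, 3L and 3R, -0.05 over 96 genes of chromosome 4, and 0.01 over the heterochromatic genes once each was counted once. The surplus of higher rows was therefore smaller by gene than by row. On the side of large changes, 7 rows (9.46%) were called with at least a 2-fold rise in 12xWT and 0 with such a fall, where 4.24% of all genes tested were called higher and 1.46% lower at that fold. Among these 7 rows, CG40467 and CG41087 are both pieces of lovit. CG40188, also among them, reached the count minimum in 12xWT libraries alone. This share was not recounted by gene. The lowest log2 fold change of any row was -0.36.

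Libraries of the genotypes did not overlap within either sex for 25 rows that were higher in 12xWT and 5 that were lower, 33.8% and 6.76% of the rows. Over all genes tested the same held for 18.1% and 11.0%. CG40188, which reached the count minimum in 12xWT libraries alone, is among the 25, so its lack of overlap was built into its selection. Pieces of Myo81F and lovit were counted as separate rows, and these shares were not recounted by gene. The authors' deposited table, which runs yw over 12xWT, holds 71 of the rows. It gives 26 as higher and 10 as lower in 12xWT at an adjusted p under 0.05, and all 71 had the same sign as in the fit described here. That table was made from the same series, so the shared sign is no independent support. Of the 10653 genes in the authors' deposited table, 17.7% were higher and 16.3% lower in 12xWT at that threshold.

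Counts were also taken by arm, where the difference between arms was not tested. Over all genes tested, 17.0% were called higher and 16.4% lower. On 2L, the arm that also carries the histone gene cluster, 3 of 16 rows were higher and 3 lower (18.8% each), with a median log2 fold change of -0.02. On 3L, 11 of 37 were higher (29.7%) and 8 lower (21.6%), with a median of 0.02. On 3R, 9 of 21 were higher (42.9%) and 1 lower (4.76%), with a median of 0.28, but 10 of the 21 rows are pieces of Myo81F. CG40188, which reached the count minimum in 12xWT libraries alone, is among the 9 higher rows.

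**Figure D1:**
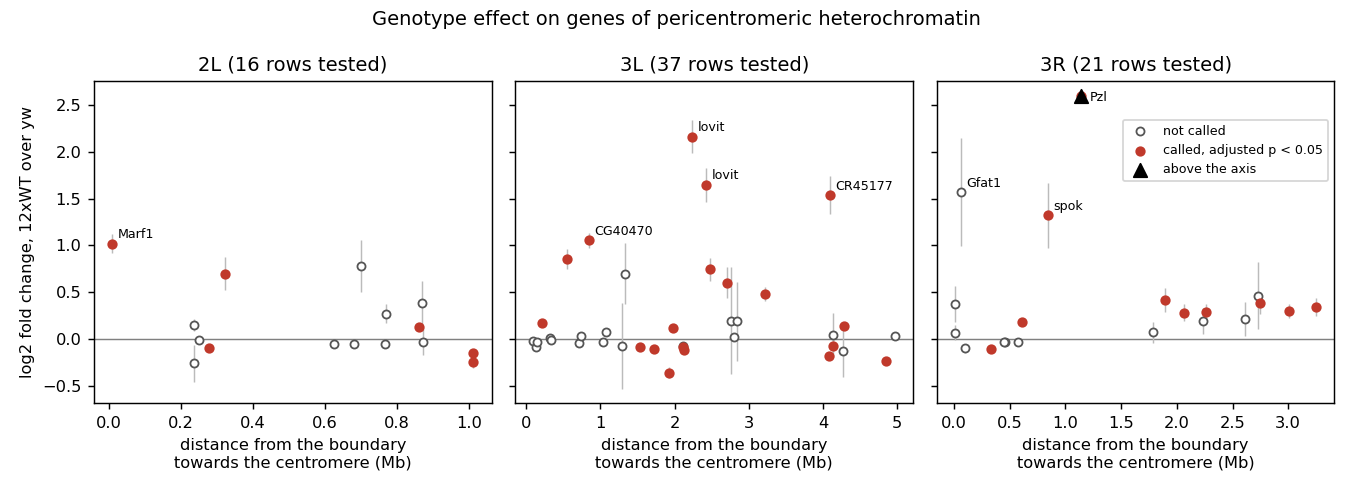
Log2 fold change of each heterochromatic row (12xWT over yw; bars, SE of the fit) against its distance in Mb from the position limit towards the centromere, 1 panel per arm. Filled points were called at an adjusted p under 0.05; the triangle stands for CG40188, a piece of Pzl that lies above the axis. Large rises are scattered among genes near 0, and the lowest row lies at -0.36.

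The rows were also divided by their level. Among the 30 rows with a mean under 10 CPM, 15 were higher and 1 lower in 12xWT, with a median log2 fold change of 0.32. Pieces of Myo81F, lovit and Pzl made up 14 of these 30 rows and 10 of the 15 higher ones. Without any row of those 3 genes, 13 of the remaining 60 heterochromatic rows were higher and 12 lower, with a median of -0.01. Among the 44 rows at 10 CPM or more, 8 were higher and 11 lower, with a median of -0.03. Over all genes tested the medians were 0.11 for 4480 genes under 10 CPM (19.4% higher, 9.08% lower) and -0.02 for 6666 genes at or above it (15.3% higher, 21.4% lower).

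**Figure D2:**
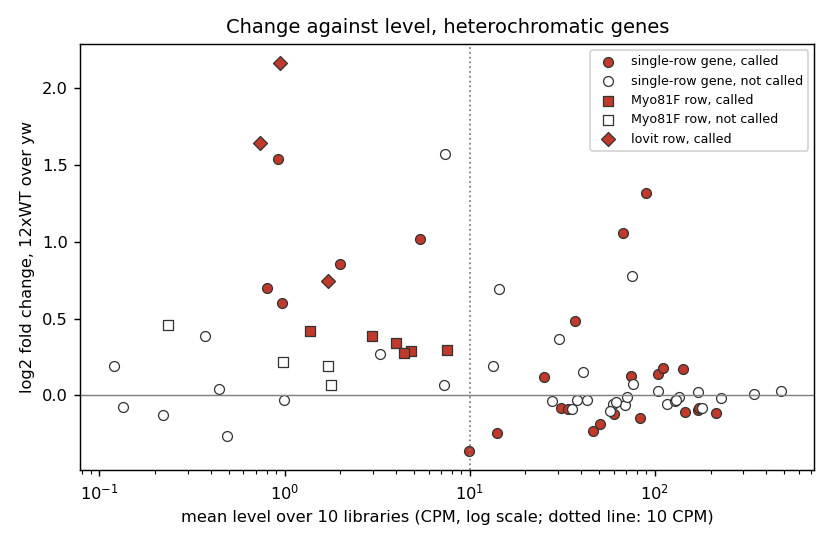
Log2 fold change (12xWT over yw) against mean level over the 10 libraries in CPM on a log scale, for the heterochromatic rows tested other than CG40188. Filled symbols were called; squares are pieces of Myo81F and diamonds pieces of lovit, and the dotted line marks 10 CPM. Left of it most points lie above 0; right of it they lie on both sides.

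Rows spanning more than 100 kb stood on 1 side. Of 11 such rows, 9 were called higher in 12xWT and 0 lower, with a median log2 fold change of 0.34; 3 of them are pieces of Myo81F and 1 is a piece of lovit. The other 5 called rows were AGO3, CG40470, CG40006, Dbp80 and Parp (now Parp1), and the 2 not called were Snap25 and CG40178 (now l(3)80Fg). By sex, 9 of the 11 rows had a log2 fold change above 0 in males and all 11 in females. The Myo81F pieces CG42621 and CG40155 lost their calls without yw female replicate 2 or without yw male replicate 2. Of 80 genes of that length elsewhere, 12 were higher and 15 lower, with a median of 0.01. The difference between these sets of genes was not tested.

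Genes of great length made up many of the rows. Myo81F encodes an unconventional myosin, a motor protein that walks on actin, and its reference model on 3R (FBgn0267431) runs from 567076 to 2532932, which is 1.97 Mb. Its 10 rows had log2 fold changes between 0.07 and 0.46, all above 0, and 6 were called. Without yw female replicate 2 or without yw male replicate 2, CG15831 alone of these 6 kept its call. Summed, they had 30.8 to 34.6 CPM in the 12xWT libraries (median 31.5) and 27.9, 23.4, 28.7 and 24.0 CPM in the yw libraries. The lowest 12xWT library lay above the highest yw library. The sum was 32.3 ± 1.54 CPM (SD, n = 6) in 12xWT and 26.01 ± 2.69 CPM (n = 4) in yw, a log2 fold change of 0.29 (SE 0.0664, edgeR adjusted p = 0.00684). The first piece in transcript order, CG42621, had 0.34 and the last, CG41527, had 0.07 with overlapping groups.

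The lovit gene (FBgn0267429, 3L, 25236940 to 25670980, minus strand) encodes a transporter that loads histamine into the synaptic vesicles of photoreceptors. Its 3 rows rose by unequal amounts, with log2 fold changes of 0.74 in CG41343 (SE 0.127, edgeR adjusted p = 9.98e-04), 1.65 in CG41087 (SE 0.182, adjusted p = 4.24e-05) and 2.16 in CG40467 (SE 0.178, adjusted p = 3.58e-06), in the order 5′ to 3′. CG40467 had 1.14 to 1.58 CPM in 12xWT (median 1.39) and 0.269, 0.249, 0.367 and 0.325 CPM in yw. No 12xWT library came near a yw library in this row. The differences between the 3 rows were not tested. Summed, lovit had 4.44 ± 0.633 CPM (SD, n = 6) in 12xWT and 1.83 ± 0.222 CPM (n = 4) in yw, a log2 fold change of 1.26 (SE 0.110, adjusted p = 6.10e-06).

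Since lovit marks photoreceptors, the eye disc markers are given beside it. Of 6 tested, 0 were called in either direction (adjusted p between 0.173 and 0.753), with a median log2 fold change of 0.12. The list summed to 71.5 to 101.3 CPM in 12xWT and 75.3 to 87.1 CPM in yw, and the rhodopsin gene ninaE averaged 0.0841 CPM in 12xWT and 0.0357 CPM in yw, near the level that a count of 0 allows (0.0375 to 0.0577 CPM by library, for counting error only). Whether such cells had a part in the lovit difference was not tested. In these bulk libraries, more cells of a type and more RNA per cell cannot be told apart.

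Pzl encodes a channel protein related to the mechanosensitive Piezo channel. Its only row above the count minimum, CG40188 (3R, 3060393 to 3062322), had 0.133 to 0.645 CPM in 12xWT (median 0.239) while all 4 yw libraries had 0 counts. It reached the count minimum through 12xWT libraries alone, so a difference was built into its selection and no fold or p is given. It is 1 of the 23 rows counted as higher in 12xWT and 1 of the 7 with at least a 2-fold rise. It is also 1 of the 25 higher rows without overlap within either sex. All 5 Pzl rows within the limits together had 12, 47, 23, 47, 13 and 12 counts in 12xWT and 1, 2, 1 and 3 counts in yw.

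**Figure D3:**
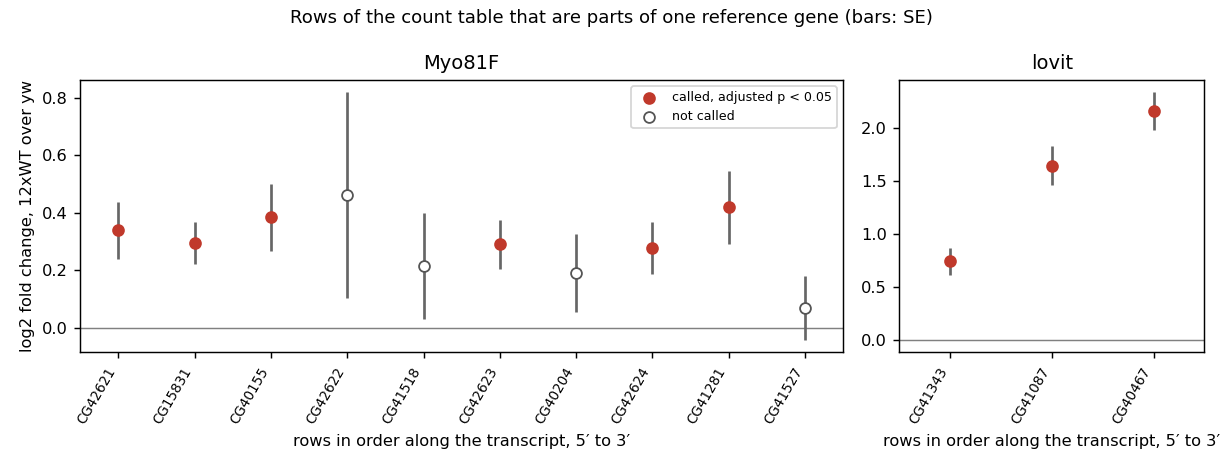
Log2 fold change (12xWT over yw; bars, SE) of the 10 rows that are pieces of Myo81F and the 3 that are pieces of lovit, in order along the transcript. Filled points were called at an adjusted p under 0.05. Myo81F rows share a small shift between 0.07 and 0.46; lovit rows run from 0.74 to 2.16.

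Among the remaining genes at more than a trace level, CG40470 (FBgn0058470, 3L, 23839860 to 23986410, minus strand) changed most clearly. It had 76.6 to 91.7 CPM in 12xWT (median 86.5) and 40.0, 34.6, 44.3 and 43.1 CPM in yw. The gap between the genotypes was wider than the range within either. Means were 85.4 ± 6.64 CPM (SD, n = 6) in 12xWT and 40.5 ± 4.32 CPM (n = 4) in yw, a log2 fold change of 1.05 (SE 0.0811, edgeR adjusted p = 1.26e-05). CG40160 (FBgn0058160, 3L, 26215815 to 26229433, plus strand) had 35.2 to 47.9 CPM in 12xWT (median 42.3) and 29.4, 31.5, 30.4 and 26.8 CPM in yw. Its libraries did not overlap either, and it rose by 0.48 on the log2 scale (SE 0.0761, adjusted p = 9.70e-04). Of the other genes without a settled name, CG12567 was higher in 12xWT at 77.5 ± 2.06 against 70.1 ± 3.28 CPM in yw, a log2 fold change of 0.12 (SE 0.0326, adjusted p = 0.0123), a call lost without yw female replicate 2 (adjusted p = 0.0509) or yw male replicate 2 (adjusted p = 0.0502). CG40006 was higher at 0.955 ± 0.186 against 0.580 ± 0.077 CPM (log2 fold change 0.70, adjusted p = 0.0109).

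CG17018 (now Marf1; FBgn0039972, 2L, 22308755 to 22368796, plus strand) encodes an RNA-binding protein that lowers the stability of its target mRNAs, known from the female germ line. It had 4.67 to 8.22 CPM in 12xWT (median 6.86) and 3.61, 3.29, 3.36 and 2.76 CPM in yw. Every 12xWT library exceeded every yw library, and the 12xWT males (6.01, 4.67 and 6.12 CPM) lay below the 12xWT females (8.22, 8.11 and 7.59 CPM). The log2 fold change was 1.02 (SE 0.104, edgeR adjusted p = 2.14e-05).

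AGO3 (FBgn0250816, 3L, 23554593 to 23689640, plus strand) is an Argonaute protein of the piRNA pathway, which silences transposons in gonads. It had 2.24 to 2.81 CPM in 12xWT (median 2.33) and 1.46, 1.37, 1.29 and 1.19 CPM in yw, a log2 fold change of 0.85 (SE 0.104, adjusted p = 9.17e-05). The libraries did not overlap. Of 5 gonad markers tested beside it, 3 were called higher in 12xWT and 0 lower. The log2 fold changes of these 3 were 1.39 for bam, 1.01 for aub (a partner of AGO3 in the piRNA pathway) and 0.67 for vas. The other 2 were tj at -0.11 and bgcn at 0.01, not called. The germline markers nos and osk were under the expression filter, with 0.165 and 0.119 CPM in 12xWT and 0.0876 and 0.0479 CPM in yw. All 7 markers summed to 30.6 to 34.8 CPM in 12xWT and 25.6 to 26.9 CPM in yw. Much of that sum was tj, which averaged 17.2 CPM in 12xWT and 18.2 CPM in yw. The part of cells with these markers in the AGO3 difference was not tested.

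Dbp80, a DEAD-box helicase that acts in mRNA export, had 105 to 113 CPM in 12xWT (median 109) and 99.2, 95.4, 99.998 and 95.6 CPM in yw. The shift was small next to its level, a log2 fold change of 0.14 (SE 0.0283, adjusted p = 0.00291). In the other direction, eIF-4B (now eIF4B), which helps the eIF4A helicase unwind mRNA for translation, had 42.8 to 45.0 CPM in 12xWT (median 44.0) and 48.8, 51.2, 50.3 and 52.6 CPM in yw. It fell by 0.23 on the log2 scale (SE 0.0288, adjusted p = 1.03e-04), with no overlap of libraries. The splicing factor genes Spf45 and CG17454 (now Spf30) had log2 fold changes of -0.06 and -0.04 and were not called.

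**Figure D4:**
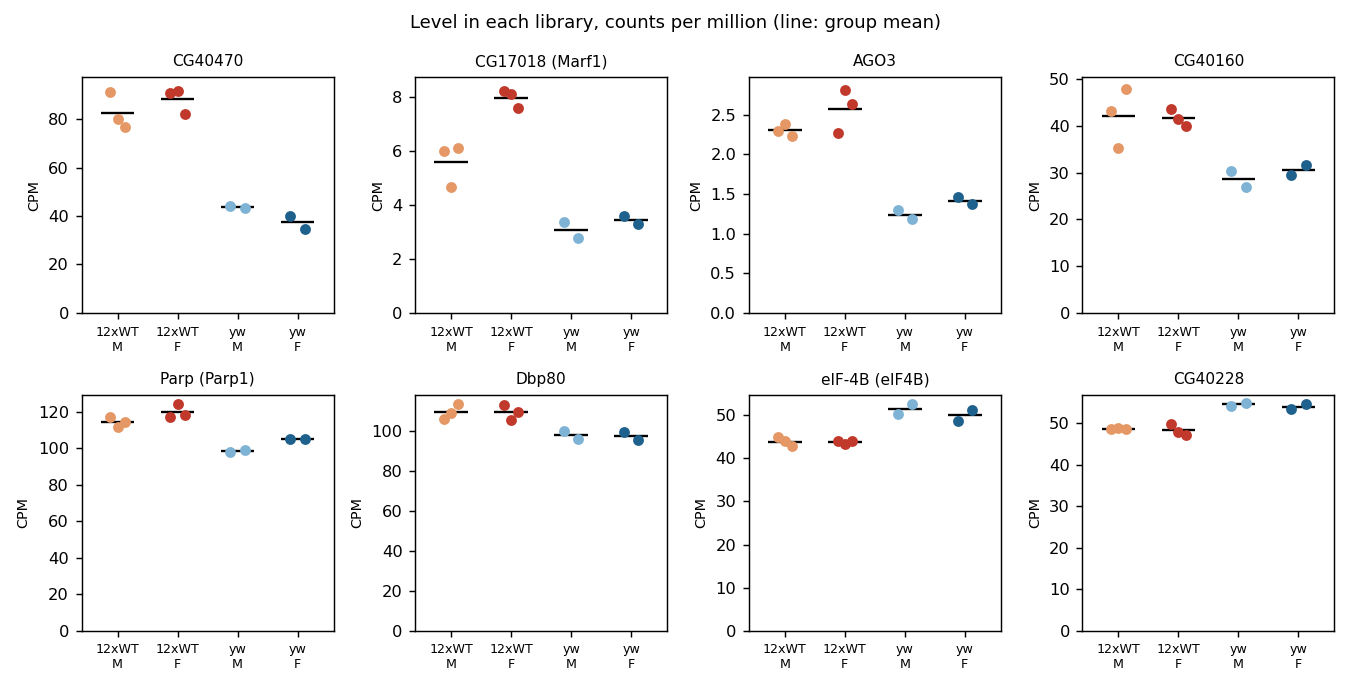
Level in CPM of 8 heterochromatic genes in each library (points), with the mean of each group (line), for 12xWT males, 12xWT females, yw males and yw females. CG40470, Marf1, AGO3, CG40160, Parp1 and Dbp80 were higher in 12xWT and eIF4B and CG40228 lower, each with no overlap of the genotypes within a sex.

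Among genes for chromatin proteins, Parp (now Parp1; FBgn0010247, 3R, 3461351 to 3587054, minus strand) encodes the poly(ADP-ribose) polymerase that modifies chromatin proteins and responds to DNA breaks. It had 111 to 124 CPM in 12xWT (median 117) and 105.2, 104.8, 97.7 and 98.7 CPM in yw. The groups did not overlap, and the log2 fold change was 0.18 (SE 0.0257, edgeR adjusted p = 2.70e-04). The cohesin subunit gene vtd (Rad21) was lower, with 169 ± 2.66 CPM in 12xWT and 177 ± 4.61 CPM in yw, a log2 fold change of -0.08 (SE 0.0238, adjusted p = 0.0214), and its libraries overlapped. Its call was lost without yw female replicate 2 (adjusted p = 0.0711), yw male replicate 1 (adjusted p = 0.0798) or yw male replicate 2 (adjusted p = 0.0550). Set1, the histone H3 lysine 4 methyltransferase of the COMPASS complex, had 178 ± 8.95 CPM in 12xWT and 185 ± 5.87 CPM in yw and was not called (log2 fold change -0.08, adjusted p = 0.126). MED21, a Mediator subunit, was lower by -0.09 (adjusted p = 0.0393), but Set1 and MED21 share exonic positions on opposite strands, and counting without strand cannot separate their reads there. The MED21 call was lost without any single library but 12xWT female replicate 2 and yw male replicate 2 (adjusted p up to 0.144).

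The genes for the heterochromatin machinery itself mostly lie elsewhere in the genome. Of 22 tested from a list of 24, 1 was higher and 11 were lower in 12xWT, with a median log2 fold change of -0.09. Over all genes tested, 17.0% were called higher and 16.4% lower, with a median of 0.00. The difference between this list and all genes was not tested. The higher gene was ADD1 (row CG8290), which encodes an HP1-associated protein (log2 fold change 0.35, SE 0.0262, adjusted p = 1.75e-06). The largest fall was in Lhr, which encodes an HP1-bound protein known from hybrid lethality (-0.20, SE 0.0602, adjusted p = 0.0221). The gene for HP1 itself had 417.6 ± 8.39 CPM in 12xWT and 434.7 ± 16.2 CPM in yw (-0.08, SE 0.0237, adjusted p = 0.0233).

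The ecdysone synthesis genes nvd and spok both lie here. nvd encodes the Rieske oxygenase of the first step from cholesterol and spok a cytochrome P450 of a later step; both act in the prothoracic cells of the ring gland, an endocrine organ attached to the larval brain. spok (FBgn0086917, 3R, 3322810 to 3354486, plus strand) had 67.7 to 165 CPM in 12xWT (median 117) and 41.4, 55.4, 65.8 and 23.5 CPM in yw. Its lowest 12xWT library was just above its highest yw library. Means were 118 ± 32.0 CPM (SD, n = 6) in 12xWT and 46.5 ± 18.3 CPM (n = 4) in yw, a log2 fold change of 1.32 (SE 0.346, edgeR adjusted p = 0.0234). The call was lost without yw female replicate 1 (adjusted p = 0.0676), without yw female replicate 2 (adjusted p = 0.0514) and without the 2 doubtful 12xWT libraries (adjusted p = 0.0797). nvd (FBgn0287185, 3L, 24324866 to 24401655, plus strand) had 9.5 to 22.5 CPM in 12xWT (median 17.6) and 8.23, 11.1, 16.4 and 6.05 CPM in yw. The groups overlapped and it was not called (log2 fold change 0.70, SE 0.327, adjusted p = 0.144); without yw male replicate 1 it was (1.06, adjusted p = 0.0377).

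Markers of the ring gland ran in step with both genes. Of 9 tested, 8 were higher in 12xWT and 0 lower, with a median log2 fold change of 1.14; phm and sad, later P450 enzymes of the same pathway, had 1.06 and 1.56. The list of 10 summed to 157.1 to 329.8 CPM in 12xWT (median 261.8) and 95.1, 140.7, 146.2 and 52.7 CPM in yw. The library with the highest sum, 12xWT male replicate 1, also had the highest spok and nvd, and the library with the lowest sum, yw male replicate 2, the lowest of both. The part of attached ring gland tissue in the differences of spok and nvd was not tested.

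**Figure D5:**
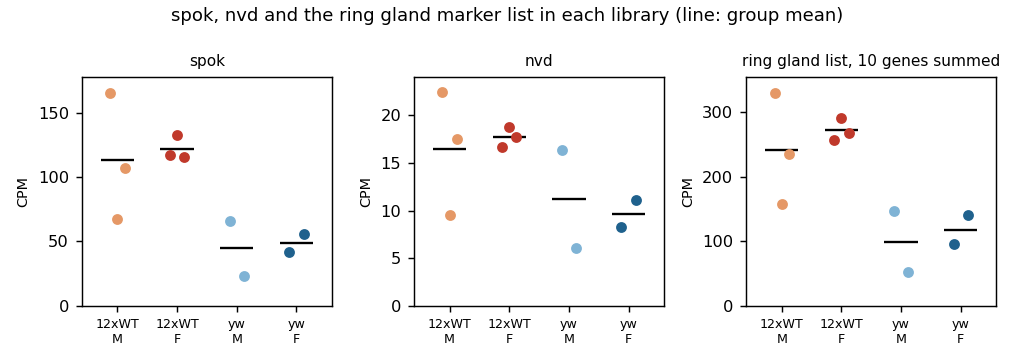
Level in CPM of spok, of nvd and of 10 summed ring gland markers in each library (points), with group means (lines), for 12xWT males, 12xWT females, yw males and yw females. The order of libraries is much alike in the 3 panels, with 12xWT male replicate 1 highest and yw male replicate 2 lowest in each.

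nAChRalpha4, a subunit of the nicotinic acetylcholine receptor, had 142 to 157 CPM in 12xWT (median 149) and 135.5, 125.9, 135.5 and 125.0 CPM in yw, a log2 fold change of 0.17 (SE 0.0416, edgeR adjusted p = 0.00893), without overlap. scro, an NK2-type homeobox gene of the optic lobe and brain, was lower at 209 ± 7.35 CPM in 12xWT against 223 ± 5.81 CPM in yw (-0.11, adjusted p = 0.0280), a call lost without yw female replicate 1 (adjusted p = 0.0935) or yw male replicate 1 (adjusted p = 0.0697). Gpb5, which encodes the beta subunit of a glycoprotein hormone, was lower at 13.2 ± 1.05 CPM in 12xWT against 15.4 ± 1.39 CPM in yw (-0.25, SE 0.0622, adjusted p = 0.0106). Libraries of both these genes overlapped. Dsk, the gene for the drosulfakinin neuropeptides, was not called (0.07, adjusted p = 0.546). Of 9 neuron markers 0 were called higher and 4 lower, and of 8 glia markers 0 higher and 6 lower.

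CG40042 (now Tim23), the channel of the inner membrane import complex, was lower with 79.9 ± 3.21 CPM in 12xWT and 87.1 ± 1.59 CPM in yw (log2 fold change -0.15, SE 0.0272, adjusted p = 0.00173). Ucrh (now UQCR-11), a subunit of respiratory complex III, was lower by -0.12 (adjusted p = 0.0146), and mRpS5, of the mitochondrial ribosome, by -0.08 at an adjusted p of 0.0499. CG40002 (now ND-AGGG), of complex I, was higher by 0.12 (adjusted p = 0.0372). Leaving out libraries one at a time ended the call of mRpS5 for 9 of the 10 libraries, all but yw female replicate 1 (adjusted p up to 0.186). It ended that of CG40002 for 6 of the 10, the exceptions being 12xWT female replicate 2, 12xWT male replicates 1 and 2 and yw female replicate 2 (adjusted p up to 0.132). The call of Ucrh was lost without yw female replicate 2 (adjusted p = 0.0542). Tim17b and ND-MLRQ, above, were not called.

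The other lower genes were CG40472, CG40228, CG41099 and CG17494 (now Slmap, a scaffold protein of the STRIPAK phosphatase complex). CG40228 (FBgn0063670, 3L, 27082091 to 27083906, minus strand) had 47.0 to 49.8 CPM in 12xWT (median 48.5) and 53.4, 54.5, 54.2 and 54.7 CPM in yw. The spread within each genotype was small and the groups did not meet, so a log2 fold change of -0.18 (SE 0.0227) gave an adjusted p of 9.52e-05. CG40472 (FBgn0085736, 3L, 24927130 to 24927708, plus strand) had 8.09 to 10.1 CPM in 12xWT (median 8.77) and 13.9, 11.6, 9.79 and 10.3 CPM in yw, the largest fall of the set at -0.36 (SE 0.0611, adjusted p = 9.30e-04). Its genotypes overlapped when the sexes were pooled but not within either sex. CG41099 was lower by -0.11 (adjusted p = 0.00311) and Slmap by -0.09 (adjusted p = 0.0242), the Slmap call being lost without yw female replicate 1 (adjusted p = 0.0593), yw female replicate 2 (adjusted p = 0.0743) or yw male replicate 1 (adjusted p = 0.0714).

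Of the noncoding RNAs, CR45177 (FBgn0266687, 3L, 27091705 to 27092199, minus strand) rose most. It had 1.003 to 1.66 CPM in 12xWT (median 1.14) and 0.4998, 0.516, 0.437 and 0.260 CPM in yw. The groups lay well apart at this low level, with a log2 fold change of 1.54 (SE 0.202, edgeR adjusted p = 1.53e-04). CR45180 was higher by 0.60 (SE 0.166, adjusted p = 0.0159), a call lost without yw male replicate 1 (adjusted p = 0.0528) or yw male replicate 2 (adjusted p = 0.0631). The classical heterochromatic loci were not called: lt, a subunit of the vesicle-tethering HOPS complex, had 115 ± 3.58 CPM in 12xWT and 118 ± 4.35 CPM in yw (-0.05, SE 0.0267, adjusted p = 0.142), and cta, a G protein alpha subunit needed for gastrulation, had 68.0 ± 1.51 CPM in 12xWT and 69.8 ± 1.87 CPM in yw (-0.06, SE 0.0299, adjusted p = 0.145).

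A few genes varied with single libraries. Gfat1, the entry enzyme of the hexosamine pathway, had 5.33 to 27.4 CPM in 12xWT (median 5.62) and 2.77, 3.42, 4.09 and 2.55 CPM in yw. All 12xWT libraries exceeded all yw libraries, but 12xWT male replicate 3 alone had 27.4 CPM and the next highest 10.9 CPM, and the gene was not called (log2 fold change 1.57, SE 0.579, edgeR adjusted p = 0.0749). Without that library the value was 0.99 (adjusted p = 0.0254). Cht3 (now Cht10), a chitinase of the cuticle, likewise had its highest level there, 152 CPM, where the remaining 12xWT libraries had 68.1 to 98.4 CPM and yw libraries 38.0 to 63.2 CPM (log2 fold change 0.78, adjusted p = 0.0689), and 0.56 without it (adjusted p = 0.0308). That library also had the highest fat body sum, 507.9 CPM, where the others ranged from 39.4 to 356.4 CPM in 12xWT and 7.84 to 200.7 CPM in yw. Within that list Fbp1 and Lsp2 were highest there, and the other genes in other 12xWT libraries. Of 7 imaginal disc markers, Dll (68.3 CPM), nub (15.0 CPM), wg (7.77 CPM) and dpp (12.3 CPM) were also highest there. The markers vg, ap and salm were not. The part of such tissues was not tested.

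The genotype difference was then set out by sex. In males 13 rows were higher (17.6%) and 6 lower (8.11%) in 12xWT, against 11.1% higher and 9.91% lower of all genes tested. In females 11 were higher (14.9%) and 4 lower (5.41%), against 7.04% and 5.57%. Without 12xWT female replicate 2, with its Y-linked RNA near the male level, and 12xWT male replicate 3, 10 were higher and 3 lower in males. In females 9 were then higher and 3 lower. With libraries left out, the share of all genes called was not counted. Male counts fell to 7 higher without yw male replicate 2 and to 2 lower without either yw male library, and to 3 lower without 12xWT male replicate 2 or 3. Female counts fell to 5 and 4 higher and to 2 and 1 lower without yw female replicates 1 and 2. All 35 rows called with sex as a covariate had the same sign in both sexes. They were chosen by the effect over both sexes in the same libraries, so this agreement was largely set in advance. The interaction of genotype and sex was called in 0 rows with edgeR and 0 with DESeq2, against 0.0% of all genes with edgeR; 2 rows had an unadjusted p under 0.05, as had 4.09% of all genes tested (456 of 11146). These were Snap25, the synaptic SNARE gene, with a log2 fold change of -0.03 in males and 0.18 in females (difference -0.21, edgeR adjusted p = 0.946), and CG40470, with 0.90 in males and 1.22 in females (edgeR adjusted p = 0.9999). Marf1 came next, with 0.85 in males and 1.18 in females (edgeR adjusted p = 0.9999). For Snap25, the 12xWT males had 78.5, 73.8 and 77.3 CPM and the 12xWT females 84.3, 78.8 and 77.5 CPM, while the yw males had 78.1 and 76.0 CPM and the yw females 69.2 and 69.7 CPM.

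Between the sexes, 1 heterochromatic row was called, where 1.68% of all genes tested were called for sex, 0.637% higher and 1.04% lower in males. CG40472 was lower in males, with 8.41, 8.09 and 8.11 CPM in 12xWT males and 10.1, 9.14 and 10.02 CPM in 12xWT females. In yw it had 9.79 and 10.3 CPM in males and 13.9 and 11.6 CPM in females. Males lay below females in both genotypes, at a log2 difference of -0.29 (edgeR adjusted p = 0.0342). The call was lost, leaving 0 rows called for sex, with any 1 of 8 libraries left out, the exceptions being 12xWT female replicate 2 and yw female replicate 2, and with the replicate number as a block.

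At the edges of the position limits, the genes nearest inside among those kept were Marf1 on 2L at 1.02, CkIIalpha on 3L at -0.02 and Dsk on 3R at 0.07 (log2 fold changes, 12xWT over yw). RpL10, left out as a ribosomal protein gene, lay nearer on 3L, with a log2 fold change of 0.01. The nearest outside were Tif-IA at 0.17, nrm at 0.23 and CG12582 at 0.24. At the count minimum, CR43941, CR45159 and CR45182 reached it in exactly 2 libraries and CR45164 and CG34031 in 1. The minimum was reached in every library by 70 of the 75 rows, in 12xWT libraries alone by 3 and in yw libraries alone by 0.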

How the data were processed

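Raw counts per gene were deposited by the authors; per the file headers they were made with featureCounts 2.0.1 in paired-end mode over exons of dm6, unstranded and without counting of multi-mapping reads, as the recorded command sets neither. The submitters' processing notes also name STAR 2.7.7a, SAMtools 1.9 and DESeq2 1.34.0. The authors' deposited comparison table gives, per its file headers, a mean normalized count as a signal value, a log2 fold change of yw over 12xWT, scores for its standard error and test statistic, and raw and adjusted p-values; it was used for comparison alone. Columns were assigned to samples by name.

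From the counts, 11146 genes passed edgeR's filterByExpr over the 4 groups. They were fitted with edgeR 4.0.16 (R 4.3.3; TMM, factors 0.985 to 1.02; robust quasi-likelihood test), with sex and genotype as terms, or with a mean per group for effects within a sex and their difference. Benjamini-Hochberg adjustment ran over all genes tested, with 0.05 as threshold. CPM are counts per 1 M of the library total, without TMM. SE is the absolute log2 fold change over the square root of F. The script was tested on simulated data. DESeq2 1.42.0 was an alternative.

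Current symbols came from the Ensembl annotation of the same coordinates. Counts without strand leave 6 rows uncertain that share exonic positions with another gene. The members and the lists were chosen with earlier results of these data known. Named were, by rule, the 10 rising and up to 10 falling called rows with the largest change, at least 1 CPM and no overlap within a sex, the 5 highest per kb, the 3 smallest p of the sex difference, rows called for sex, and known heterochromatic genes. The other called rows and Gfat1, Cht3, CG17374 and CG12581 were named after their values were seen. Same-numbered libraries showed little shared deviation, so the main fit used no block. This does not exclude a batch shared by number.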

Additional observations from a re-analysis of the deposited data

Results flagged for a closer look

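Over 105 groups of library values of the named rows, of which chance alone would set about 1 in 20 apart, 5 held a library that stood apart from its genotype. In 12xWT male replicate 3, Gfat1 had 27.4 CPM where the other 12xWT libraries had 5.33 to 10.9 CPM, Cht3 had 152 CPM where they had 68.1 to 98.4 CPM, and CG12581 had 52.8 CPM where they had 26.5 to 34.0 CPM. In 12xWT male replicate 2, CG42621, a piece of Myo81F, had 5.10 CPM where the other 12xWT libraries had 3.99 to 4.39 CPM. In yw male replicate 2, CG17374 (now FASN3, a fatty acid synthase) had 1.90 CPM where the other yw libraries had 14.8 to 17.4 CPM; that library also had the lowest fat body sum, 7.84 CPM. Across 12xWT, CG17374 ranged from 5.75 to 24.9 CPM, and its genotype effect was not called (log2 fold change 0.19, edgeR adjusted p = 0.827).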

How the results depend on the processing

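The count of rows higher in 12xWT stayed within 1.5 times of 23 under every alternative but 1: it was 15 without yw male replicate 2, and 15 to 25 over all libraries left out in turn. The 12 lower rows became 7 with library size only, 5 with the replicate block, and 7 to 11 with a library left out, 7 being the value without yw female replicate 2 and without yw male replicate 1. Library size only shifted the median of all genes to 0.02 and put 76.7% of the heterochromatic calls and 61.2% of all calls on the higher side, against 65.7% and 50.8%. In males, 6 lower rows became 3 with library size only, 2 with the replicate block and 3 without 12xWT female replicate 2 and 12xWT male replicate 3, an alternative chosen after seeing the data as was counting once per reference gene; libraries left out gave 7 to 13 higher and 2 to 6 lower. In females, 11 higher rows became 7 with the replicate block; libraries left out gave 4 to 13 higher and 1 to 4 lower. Sex calls numbered 2 with DESeq2, 0 with the replicate block and 0 to 1 with a library left out (0 for 8 of the 10 libraries), and the sex difference stayed at 0. The median log2 fold change of 0.07 was 0.0894 with library size only, 0.0892 with the replicate block, 0.0907 without the 2 libraries, 0.0976 without rows sharing exonic positions, 0.0097 by reference gene and 0.0329 to 0.10 with a library left out. Reversed signs, none of them called, were CkIIalpha (0.0023) and CG32230 (0.014) with library size only, CG32230 without the 2 libraries (0.0047), and, with a library left out, alpha-Cat (from -0.0042 to 0.024 over the libraries left out, against 0.01), CG32230 (from -0.025 to 0.0091, against -0.01) and CG17374 (from -0.15 to 0.77, against 0.19; below 0 without 12xWT male replicate 1 and without yw male replicate 2). The cause was not tested. Of 13 pairs of same-numbered libraries 1 had a correlation of deviations over 0.1 (range -0.17 to 0.10). In a group of 2 libraries the deviations mirror each other, so the 13 pairs are not separate. The yw females with the yw males gave 0.0458 for replicate 1 and again for replicate 2. With 2 or 3 libraries per group, such correlations cannot exclude a batch shared by number. With the block 18 rows were higher and 5 lower. The share of all genes called was not counted with the block or with libraries left out. Of the 53 named rows and genes run singly, 35 were called in the main fit and so had a call to lose. Of these 35, 15 lost it in some fit with a library left out, and 4 of the others gained a call. At these depths a count of 0 allows up to 0.0577 CPM.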
